A study of Arabidopsis thaliana with 4 samples.

Results

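Ribosomal protein genes encode the protein part of the cytosolic ribosome, and 46 of them are described here in Arabidopsis thaliana seedlings, out of 23174 genes with values. The 46 nuclear genes were taken from a fixed list of loci and encode 27 proteins: 25 genes of the large (60S) subunit, 6 genes of its P-stalk, 14 genes of the small (40S) subunit and RACK1A. The list was chosen by gene family and selected on the FPKM differences between the genotypes in these same libraries, so the differences given for its members describe them and support nothing. RNA-seq libraries, stranded and selected for polyA, were made from whole seedlings of wild type and of atino80-5, a mutant allele of the INO80 gene, whose product is the ATPase of a chromatin remodelling complex that moves nucleosomes. All seedlings were 14 days old and had grown on MS agar plates at 22 °C in a long-day cycle (16 h of light, then 8 h of darkness), with no other treatment given in the labels. Each genotype had 2 libraries, called replicates 1 and 2, and the comparison asks how transcript levels differ between the genotypes in long days. The labels do not say whether replicates came from separate cultures, so every p-value below reflects only how far these libraries differ, a spread that may be technical. They also do not say what the atino80-5 allele changes in the gene.

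The cytosolic ribosome translates mRNA: its small subunit reads the codons and its large subunit joins the amino acids. The P-stalk is a flexible arm of the large subunit, built on protein P0 with the acidic proteins P1 and P2, and it recruits the elongation factors. RACK1 is a scaffold protein on the head of the small subunit that also takes part in signalling. In Arabidopsis nearly every ribosomal protein is encoded by a small family of paralogous genes, and these genes are transcribed most in growing, dividing tissue.

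The stretches of 250 bases just before the annotated transcript start are shown for 5 of the genes: the P1 genes, among them RPP1A, the gene with the widest gap between the mutant libraries, RPL10C, the member of its family with lower values in the mutant, and RPL10aB, the gene with the lowest adjusted p. They were read from the RefSeq assembly TAIR10.1 with its own annotation and hold no exon of another gene. Capitals mark TGGGCC and TGGGCT, core letters of the site II elements known from promoters of plant ribosomal protein genes, and AAACCCTA, the telo box known from the same promoters. Each was searched on both strands, so the reverse complements are marked and counted too.
RPP1A (AT1G01100, chr1:51211-51460, minus strand): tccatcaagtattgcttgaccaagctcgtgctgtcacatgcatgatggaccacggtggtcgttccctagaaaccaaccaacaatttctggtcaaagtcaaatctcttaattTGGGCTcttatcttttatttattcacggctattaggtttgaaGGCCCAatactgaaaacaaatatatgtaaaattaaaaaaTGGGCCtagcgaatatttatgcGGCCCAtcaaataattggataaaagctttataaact
RPP1B (AT4G00810, chr4:347294-347543, minus strand): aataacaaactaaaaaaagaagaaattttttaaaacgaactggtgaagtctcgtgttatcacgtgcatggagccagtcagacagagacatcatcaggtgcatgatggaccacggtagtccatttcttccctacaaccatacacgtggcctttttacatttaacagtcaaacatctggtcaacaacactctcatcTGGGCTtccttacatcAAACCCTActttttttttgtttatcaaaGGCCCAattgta
RPP1C (AT5G47700, chr5:19328987-19329236, minus strand): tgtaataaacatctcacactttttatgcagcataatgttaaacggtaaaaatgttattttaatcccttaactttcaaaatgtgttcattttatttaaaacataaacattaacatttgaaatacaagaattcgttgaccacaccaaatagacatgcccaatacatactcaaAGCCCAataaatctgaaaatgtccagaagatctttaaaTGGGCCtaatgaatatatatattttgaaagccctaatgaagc
RPL10C (AT1G66580, chr1:24838840-24839089, plus strand): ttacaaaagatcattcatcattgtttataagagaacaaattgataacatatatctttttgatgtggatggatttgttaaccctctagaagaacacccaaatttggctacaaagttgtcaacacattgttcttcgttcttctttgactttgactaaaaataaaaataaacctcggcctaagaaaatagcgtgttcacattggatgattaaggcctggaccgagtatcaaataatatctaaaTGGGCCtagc
RPL10aB (AT2G27530, chr2:11764936-11765185, minus strand): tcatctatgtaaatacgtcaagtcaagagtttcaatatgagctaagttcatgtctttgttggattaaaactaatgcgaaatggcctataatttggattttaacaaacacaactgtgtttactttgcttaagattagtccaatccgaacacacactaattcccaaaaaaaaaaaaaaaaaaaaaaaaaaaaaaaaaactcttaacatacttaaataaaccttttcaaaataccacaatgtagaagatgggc

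The P1 genes all carried both TGGGCC and TGGGCT in this window, and only RPP1B of the 5 shown also carried AAACCCTA. RPL10aB held none of the motifs in these letters. The longest identical stretch of RPP1A and RPP1B was the 18 bases tgcatgatggaccacggt, which began 212 bases before the start of RPP1A and 153 bases before that of RPP1B. Over the 46 genes, TGGGCC or TGGGCT was present in 32 promoters (69.6%), against 121 of 174 (69.5%) for the other cytosolic ribosomal protein genes and 4683 of 22128 (21.2%) for all protein-coding genes with values. AAACCCTA was present in 4 of the 46 (8.70%), in 39 of the 174 others (22.4%) and in 794 of all 22128 (3.59%). TGGGCC can overlap its own reverse complement, and a match is a description of the letters only.

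The libraries held 13068214 to 18406709 reads. The authors' FPKM values, which are reads scaled by gene length and by library, gave back whole reads for all values. On log2 values the wild-type libraries correlated at r = 0.9927 and the mutant libraries at r = 0.9822 across genes, which are not independent replicates. Libraries of different genotype correlated at 0.9570 to 0.9789, and atino80-5 replicate 1 was the further from wild type. INO80 itself, the gene named by the mutant, was at 4.28 and 4.54 FPKM in wild type and at 2.72 and 3.13 FPKM in atino80-5. This was a log2 difference of -0.46 that missed the threshold (limma adjusted p = 0.117). Since whole seedlings were used, fewer cells of a type and less RNA per cell cannot be told apart. The 4 leaf markers, LHCA4, LHCB1.1, RBCS1A and RCA, summed to 28610 to 41880 FPKM over the libraries, so leaf tissue was present in each. Most of that sum was RBCS1A, at 34644 and 24951 FPKM in wild type and 20628 and 36160 FPKM in the mutant. In mutant replicate 1, where RBCS1A was lowest, LHCB1.1, RCA and LHCA4 were at their highest (4203, 1890 and 1885 FPKM).

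None of the 46 genes passed the test between the genotypes, and most of their higher values in atino80-5 lay in replicate 1 of the mutant. With limma on log2(FPKM + 1) and Benjamini-Hochberg adjustment over all 17642 genes tested, 0 of 46 were called higher and 0 lower, where 955 of all genes tested (5.41%) were called, 2.99% higher and 2.42% lower. At an unadjusted p under 0.05 there were 5 higher genes (RPP1A, RPP0B, RPL8C, RPL10aB and RPS6B) and 2 lower ones (RPL10C and RPL23aB), beside 14.8% and 12.2% of all genes tested. Limma voom on the recovered reads also called 0. The authors' deposited table, from their DESeq2 test, called 4 of the 46 higher at an adjusted p under 0.05 (among them RPL10aB, RPP0B and RPS6B) and 0 lower, beside 5.85% and 3.65% of the genes in it. All 46 passed the minimum level of 1 FPKM, with at least 145 reads in every library. A neighbouring gene overlaps 9 of them (RPL8C, RPL9B, RPL9C, RPL18C, RPL24A, RPP0A, RPP0B, RPS13A and RPS18C), and reads there may belong to either gene.

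Each mutant library was therefore set alone against the wild-type mean, without a test. In atino80-5 replicate 1, 19 of 46 genes stood above 1.5 times the wild-type mean, beside 19.9% of all genes tested. In atino80-5 replicate 2, 0 of 46 did, beside 8.5% of all genes tested. The ratio to the wild-type mean ran from 0.482 to 3.42 with a median of 1.37 in replicate 1, and from 0.653 to 1.49 with a median of 1.08 in replicate 2. The wild-type mean stood above 1.5 times replicate 1 for 3 of 46 genes (RPL23aA, RPL23aB and RPL28A), beside 17.7% of all genes tested, and above 1.5 times replicate 2 for 1 of 46 (RPL10C), beside 8.75%. Between the wild-type libraries the ratio of replicate 1 to replicate 2 ran from 0.816 to 1.49. Replicate 1 of the mutant was above replicate 2 for 38 of 46 genes (82.6%), beside 51.8% of all genes tested. Both mutant libraries lay above both wild-type libraries for 27 genes and below both for 3 (RPL10C, RPL23aA and RPL23aB), beside 33.4% and 28.8% of all genes tested.

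**Figure D1:**
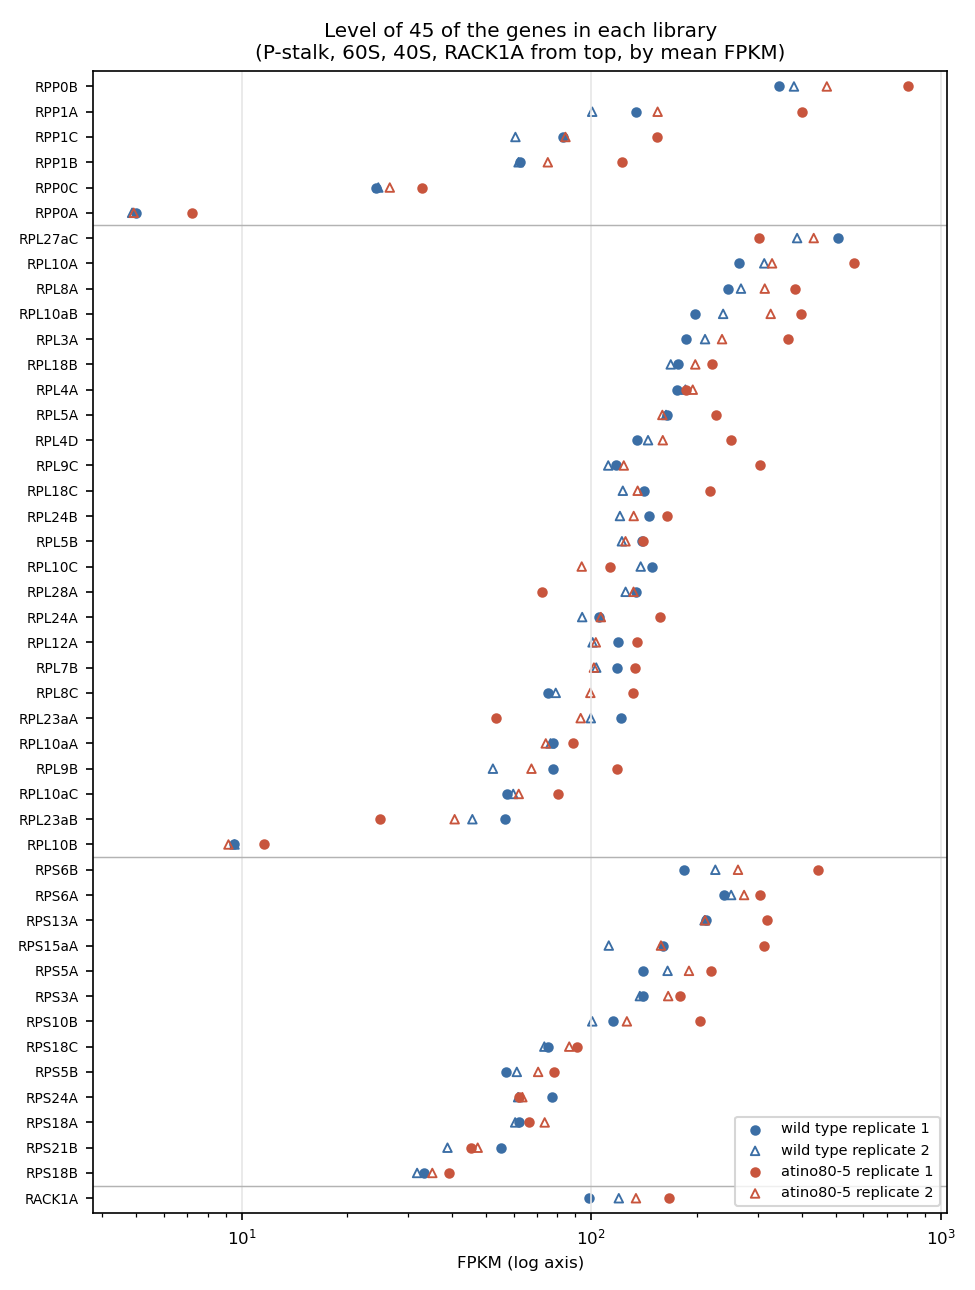
Level of 45 of the 46 genes in FPKM on a log axis, with filled circles for replicate 1 and open triangles for replicate 2 of wild type (blue) and atino80-5 (red). The circles of atino80-5 replicate 1 lie to the right of the triangles of replicate 2 for 37 of these 45 genes, and the levels run from a mean of 5.50 FPKM for RPP0A to 500.3 FPKM for RPP0B.

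Among the P-stalk genes, RPP1A (AT1G01100, chromosome 1), which encodes an acidic P1 protein, showed the widest gap between the mutant libraries. It was at 134 and 101 FPKM in the wild-type libraries, at 401 FPKM in atino80-5 replicate 1 and at 155 FPKM in atino80-5 replicate 2. Both mutant values were above both wild-type values, but replicate 2 stood only 1.32 times above the wild-type mean while replicate 1 stood 3.42 times above it. The genotype means were 117 ± 23.9 and 278 ± 174 FPKM (SD, n = 2), and the mutant libraries differed from each other 2.59-fold. The log2 difference was 1.09 (SE 0.44, limma adjusted p = 0.180), and it was 0.41 without replicate 1 and 1.78 without replicate 2 of the mutant. In those fits the lone mutant library is assumed to vary like the wild-type ones. In the authors' deposited table RPP1A had a log2 fold change of 1.24 (adjusted p = 0.268).

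The other P1 genes had the same order of libraries at the top. RPP1B (AT4G00810) was at 62.7 and 62.0 FPKM in wild type and at 122 and 75.1 FPKM in the mutant replicates 1 and 2 (log2 difference 0.61, SE 0.26, limma adjusted p = 0.189). RPP1C (AT5G47700) was at 83.0 and 60.7 FPKM in wild type and at 154 and 84.4 FPKM in the mutant (log2 difference 0.68, SE 0.32, limma adjusted p = 0.228). For both, mutant replicate 2 was above wild-type replicate 1 by less than the gap between the mutant libraries.

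P0 is the core of the stalk, and nearly all the summed FPKM of its genes came from RPP0B (AT3G09200), the highest of the 46 by FPKM. RPP0B was at 344 and 379.9 FPKM in wild type and at 806 and 472 FPKM in the mutant replicates 1 and 2. Both mutant libraries were above wild type (log2 difference 0.77, SE 0.30, limma adjusted p = 0.169; adjusted p = 0.0197 in the authors' deposited table). RPP0B overlaps the neighbouring gene AT3G09210 on the same strand, and reads in the overlap could not be told apart here. RPP0C (AT3G11250) was at 24.2 and 24.6 FPKM in wild type and 32.8 and 26.5 FPKM in the mutant (log2 difference 0.26, SE 0.17, limma adjusted p = 0.354). RPP0A (AT2G40010), the lowest of the 46, was at 5.00 and 4.86 FPKM in wild type and 7.24 and 4.91 FPKM in the mutant, so its genotypes overlapped. Over the 6 stalk genes the median log2 difference was 0.645, from 1.03 in mutant replicate 1 and 0.26 in replicate 2. All 6 differences were above 0 as reported, where 52.9% of all genes tested were, and under every scaling tried. With mutant replicate 1 left out, 5 of 6 were above 0.

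The 25 genes of the other 60S proteins had a median log2 difference of 0.21, which turned to -0.10 under quantile normalisation and to -0.01 when libraries were scaled to total reads. Of them 20 were above 0, 11 had both mutant libraries above wild type and 3 had both below, beside 52.9%, 33.4% and 28.8% of all genes tested. RPL10 sits near the peptidyl transferase centre and joins the large subunit late in its assembly. RPL10A (AT1G14320) was at 265 and 312 FPKM in wild type and at 563 and 329 FPKM in mutant replicates 1 and 2 (log2 difference 0.58, SE 0.30, limma adjusted p = 0.260). Its paralog RPL10C (AT1G66580) went the other way, at 149 and 138 FPKM in wild type and 113 and 93.9 FPKM in the mutant (log2 difference -0.48, SE 0.19, limma adjusted p = 0.176). Here mutant replicate 2 was the library farther from wild type. RPL10B (AT1G26910), at 9.50 and 9.54 FPKM in wild type and 11.6 and 9.17 FPKM in the mutant, overlapped between genotypes.

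RPL10aB (AT2G27530), known as PIGGYBACK1 from its effect on leaf shape, had the highest ratio to wild type of the 46 in mutant replicate 2. It was at 199 and 238 FPKM in wild type and at 397 and 326 FPKM in the mutant, 1.82 and 1.49 times the wild-type mean. The log2 difference was 0.72 (SE 0.22) with a limma adjusted p of 0.109, the lowest among the 46. Its paralogs were closer to wild type, with log2 differences of 0.07 for RPL10aA (AT1G08360) and 0.26 for RPL10aC (AT5G22440), and both turned negative under quantile normalisation.

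The pair of RPL23a genes, which encode a protein at the exit of the nascent chain tunnel, had the lowest log2 differences of the 46. RPL23aA (AT2G39460) was at 121 and 99.7 FPKM in wild type, at 53.3 FPKM in mutant replicate 1 and at 93.3 FPKM in replicate 2 (log2 difference -0.63, SE 0.29, limma adjusted p = 0.216). RPL23aB (AT3G55280) was at 56.7 and 45.7 FPKM in wild type and at 24.8 and 40.7 FPKM in the mutant (log2 difference -0.66, SE 0.26, limma adjusted p = 0.175). In both genes mutant replicate 1 alone was far below wild type, by log2 differences of -1.03 and -1.01, and replicate 2 lay just under the lower wild-type library. RPL28A (AT2G19730) had the same low library, at 134 and 125 FPKM in wild type and 72.5 and 132 FPKM in the mutant, so its genotypes overlapped. RPL27aC (AT1G70600), the second highest of the 46, was at 508 and 388 FPKM in wild type and 303 and 433 FPKM in the mutant, and it overlapped too (log2 difference -0.29, SE 0.27, limma adjusted p = 0.496).

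Of the remaining 60S genes, RPL9C (AT1G33140, PIGGYBACK2) showed the same single high library as RPP1A. It was at 118 and 112 FPKM in wild type, 304 FPKM in mutant replicate 1 and 124 FPKM in replicate 2, a 2.45-fold gap between the mutant libraries. Its tandem neighbour RPL9B (AT1G33120) was at 77.8 and 52.3 FPKM in wild type and 119 and 67.4 FPKM in the mutant. More than 50% of the 50-base windows of either transcript occur in another transcript of the ribosomal protein genes (53.4% for RPL9B and 54.2% for RPL9C), so the split of reads between them is uncertain. RPL8C (AT4G36130) was at 75.0 and 79.1 FPKM in wild type and 131 and 99.4 FPKM in the mutant, without overlap (log2 difference 0.56, SE 0.20, limma adjusted p = 0.151). RPL3A, which lies beside the peptidyl transferase centre, and RPL4D, which lines the exit tunnel, were 1.51 and 1.47 times as high in the mutant mean, again with replicate 1 on top. RPL4A, RPL5A, RPL5B, RPL7B, RPL12A and RPL24B had log2 differences between 0.02 and 0.21, and all turned negative under quantile normalisation. RPL5 binds the 5S RNA, and RPL12 sits at the base of the stalk. RPL8A, RPL18B, RPL18C and RPL24A had log2 differences of 0.43, 0.27, 0.38 and 0.38, of which RPL18B turned negative under quantile normalisation.

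The 14 genes of the 40S subunit had a median log2 difference of 0.30, with 12 of 14 above 0, beside 52.9% of all genes tested. Under quantile normalisation it was -0.04, with 6 of 14 above 0. RPS6B (AT5G10360) encodes RPS6, the protein phosphorylated through the TOR and S6 kinase pathway. It was at 185 and 226 FPKM in wild type and at 445 and 263 FPKM in the mutant (log2 difference 0.74, SE 0.30, limma adjusted p = 0.177; adjusted p = 0.0324 in the authors' deposited table). Its paralog RPS6A (AT4G31700) was at 239 and 251 FPKM in wild type and 303 and 274 FPKM in the mutant, a log2 difference of 0.23 that became -0.14 under quantile normalisation.

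RPS15aA (AT1G07770) was at 161 and 112 FPKM in wild type and 311 and 158 FPKM in the mutant, so that mutant replicate 2 lay between the wild-type libraries. RPS10B (AT5G41520) was at 116 and 101 FPKM in wild type and 205 and 126 FPKM in the mutant, without overlap. RPS13A (AT4G00100), known as POINTED FIRST LEAF2, was at 213 and 211 FPKM in wild type, 318 FPKM in mutant replicate 1 and 212 FPKM in replicate 2. It overlaps AT4G00090 on the same strand. The genes of RPS18, a protein of the small subunit's head, differed little between the mutant libraries, which were 1.12-fold apart for RPS18B and 1.05-fold for RPS18C. Their log2 differences were 0.19, 0.19 and 0.25 for RPS18A, RPS18B and RPS18C, and all were below 0 under quantile normalisation. RPS3A, RPS5A and RPS5B had log2 differences of 0.31, 0.42 and 0.32 without overlap, and RPS3A was at -0.06 under quantile normalisation. RPS21B and RPS24A had log2 differences of -0.0031 and -0.14, with genotypes that overlapped. RACK1A (AT1G18080) was at 98.5 and 119.9 FPKM in wild type and at 167 and 134 FPKM in the mutant, with no overlap (log2 difference 0.46, SE 0.21, limma adjusted p = 0.215).

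**Figure D2:**
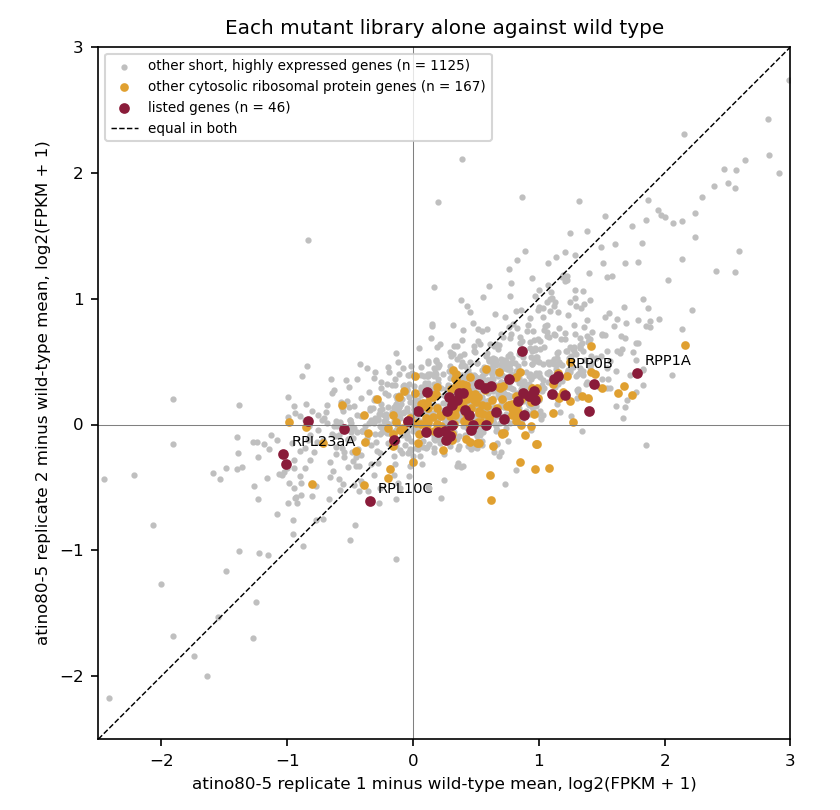
Difference from the wild-type mean on the log2(FPKM + 1) scale in atino80-5 replicate 1 (horizontal) and replicate 2 (vertical) for the 46 genes (dark red), 167 other cytosolic ribosomal protein genes (yellow) and 1125 other short, highly expressed genes (grey, 4 outside the axes). Most of the 46 lie right of 0 and below the dashed line of equal differences, with RPP1A farthest right at 1.78 and 0.41.

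Within families the paralogs did not all keep their share of the summed FPKM, which is a level per gene length. RPL10A made up 62.5% and 67.9% of the summed RPL10 FPKM in wild type and 81.9% and 76.1% in the mutant. RPL10C made up 35.2% and 30.1% in wild type and 16.4% and 21.7% in the mutant. Both mutant libraries stood apart from wild type here, although the summed level was 423 and 460.4 FPKM in wild type and 688 and 432 FPKM in the mutant. RPL10aB also held a larger share in both mutant libraries, 70.2% and 70.5% against 59.5% and 63.6%. With 2 libraries per genotype the smallest two-sided p of an exact permutation test is 0.33, so no share was tested. RPL23aA kept 68.2% to 69.6% of its family in all 4 libraries while the family sum was 178 and 145 FPKM in wild type and 78.1 and 134 FPKM in the mutant.

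In other families the share stood furthest from wild type in mutant replicate 1. RPP1A made up 48.0% and 45.1% of the summed P1 FPKM in wild type, 59.2% in mutant replicate 1 and 49.3% in replicate 2. RPS13A made up 56.4% and 59.1% in wild type, 80.4% in mutant replicate 1 and 57.3% in replicate 2. RPL12A, one of the genes with little difference of its own, made up 27.5% and 30.9% in wild type, 18.8% in mutant replicate 1 and 23.8% in replicate 2, so both mutant libraries were below wild type. Its paralog RPL12B, not among the 46, was at 58.0% in mutant replicate 1 and at 35.4% to 36.9% in the other libraries. RPS6B made up 43.6% and 47.4% in wild type, 59.5% in mutant replicate 1 and 49.0% in replicate 2. The families of this and the preceding paragraph were chosen after their shares were seen.

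**Figure D3:**
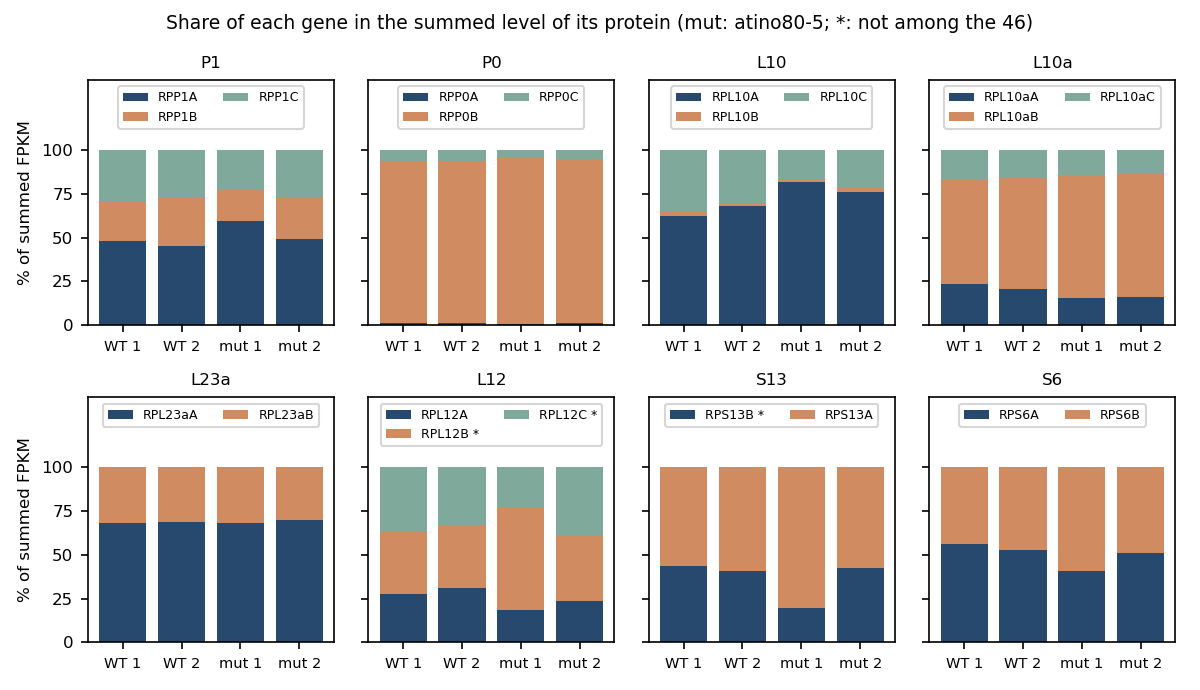
Share of each paralog in the summed FPKM of its protein, in percent, for 8 proteins in the 4 libraries (WT, wild type; mut, atino80-5; the number is the replicate). The RPL10 and RPL10a panels differ between genotypes in both mutant libraries, the RPL23a panel is level, and the RPL12, RPS13 and RPS6 panels differ most in mutant replicate 1.

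As a share of all reads, the 46 genes took 0.998% and 1.00% in wild type, 1.27% in atino80-5 replicate 1 and 0.997% in replicate 2. Mutant replicate 2 was thus level with wild type on this measure, and replicate 1 above it. The mutant mean exceeded the wild-type mean by 0.135 percentage points, with a replicate SD of 0.136. The 50 genes with most reads outside the 46 took 20.3% to 22.9% of each library. With those 50 genes removed from the total, the 46 genes took 1.27% and 1.25% in wild type and 1.62% and 1.29% in the mutant.

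The other cytosolic ribosomal protein genes gave values much like those of the 46, with no test made between them. Of 167 such genes tested, limma called 0, beside 5.41% of all genes tested. At an unadjusted p under 0.05 were 18 (16 higher and 2 lower), beside 14.8% higher and 12.2% lower of all genes tested. The authors' deposited table called 11 higher and 0 lower, beside 5.85% and 3.65% of the genes in it. The median log2 difference of these other genes was 0.31, against 0.28 for the 46 and 0.03 for all genes tested. It was 0.45 in mutant replicate 1 and 0.13 in replicate 2, where the 46 had 0.455 and 0.11. RPP2D (AT3G44590), which encodes the acidic P2 partner of P1, was at 28.3 and 17.97 FPKM in wild type and 104 and 35.5 FPKM in the mutant (log2 difference 1.39, limma adjusted p = 0.144). The 5 P-stalk genes tested outside the 46 had median differences of 0.99 in mutant replicate 1 and 0.02 in replicate 2. Both mutant libraries lay above both wild-type libraries for 1 of these 5, beside 33.4% of all genes tested. RPS16B (AT3G04230) was at 9.83 and 7.59 FPKM in wild type and 24.8 and 13.8 FPKM in the mutant (log2 difference 1.02, limma adjusted p = 0.0942).

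The 46 genes are short and highly expressed, with a median mean level of 127 FPKM against 7.19 FPKM for all genes tested, and a median length of 1541 bases against 2154. Other short, highly expressed genes were therefore taken as a class: all 1125 genes outside the family with a mean of at least 44.3 FPKM and a length of at most 2018 bases, the 10th and 90th percentiles of the 46. In this class 851 of 1125 differences were above 0 (75.6%), against 39 of 46 (84.8%) and 52.9% of all genes tested. The class median was 0.33, beside 0.28 for the 46. It was 0.41 in mutant replicate 1 and 0.24 in replicate 2, so that replicate 2 stood further from wild type in the class than in the 46. Limma called 86 of the 1125 higher and 16 lower, beside 2.99% and 2.42% of all genes tested. In mutant replicate 2, 197 of 1125 stood above 1.5 times the wild-type mean, where 0 of 46 did, beside 8.5% of all genes tested. No test was made between the 46 and the class, since the choice of the 46 used these values.

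**Figure D4:**
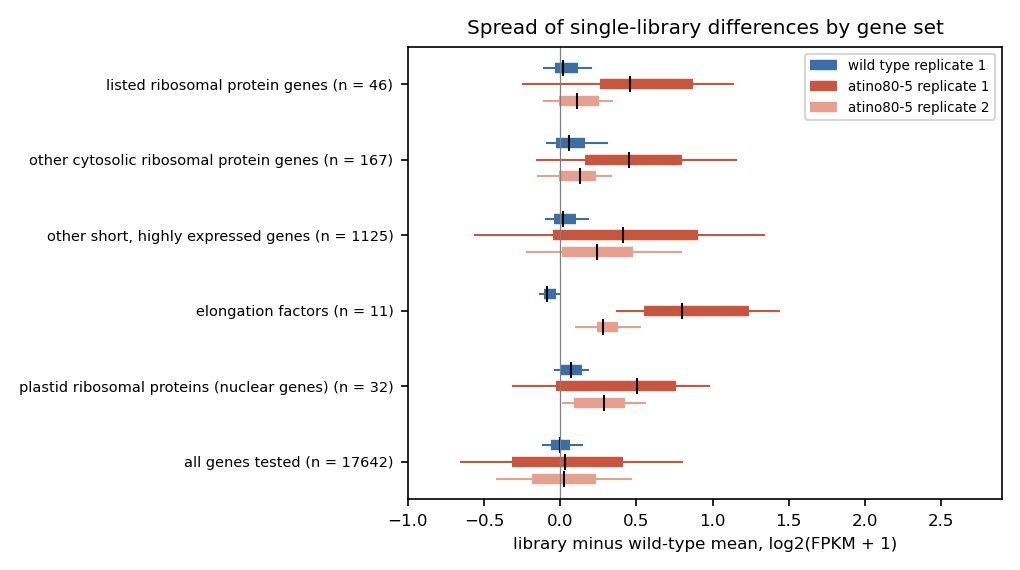
Spread over genes of the difference of single libraries from the wild-type mean on the log2(FPKM + 1) scale, for wild-type replicate 1 (blue) and atino80-5 replicates 1 (red) and 2 (pale red); ticks are medians, thick bars run between the quartiles and thin lines between the 10th and 90th percentiles. The medians of the 46 genes (0.455 and 0.11 for the mutant replicates) lie near those of the other ribosomal protein genes, and the short, highly expressed genes reach 0.24 in replicate 2.

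The size of these medians depended on how the libraries were scaled. The median of the 46 was 0.02 under quantile normalisation, 0.06 with scaling to total reads and 0.16 with each library's trend against gene length removed. The median of all genes was -0.01, -0.16 and 0.00 in those settings, and relative to it the 46 stood at 0.03, 0.22 and 0.16. The class of short, highly expressed genes moved alongside, to 0.02, 0.11 and 0.20. Of the 46 genes, 15 changed sign under quantile normalisation, 10 with scaling to total reads and 5 with the length trend removed. With atino80-5 replicate 1 left out the median was 0.11 and 11 genes changed sign.

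**Figure D5:**
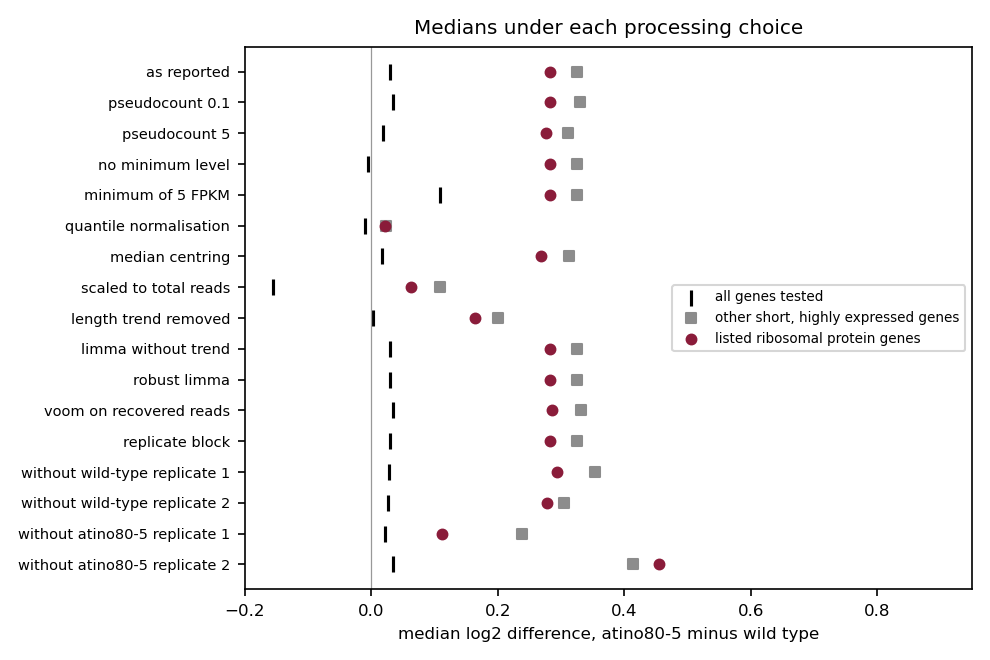
Median log2 difference between atino80-5 and wild type for the 46 genes (red circles), the other short, highly expressed genes (grey squares) and all genes tested (black ticks) under each processing choice. The circles and squares are at 0.28 and 0.33 as reported and both at 0.02 under quantile normalisation, and they are apart at 0.11 and 0.24 without atino80-5 replicate 1.

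Genes of other parts of the translation machinery were read from the same fit. Of 11 elongation factor genes limma called 1 higher, beside 2.99% of all genes tested. All 11 differences were above 0, beside 52.9% of all genes tested, with a median of 0.56. The called gene, AT5G12110, was at 3.99 and 4.08 FPKM in wild type and 12.6 and 9.35 FPKM in the mutant (log2 difference 1.24, adjusted p = 0.0173), so both mutant libraries were clear of wild type. Under quantile normalisation 9 of 11 were above 0. Of 14 ribosome biogenesis genes limma called 0, with a median of 0.18. At an unadjusted p under 0.05 were 5, all higher, beside 14.8% of all genes tested. The largest differences were those of AT4G31790 (0.85, limma adjusted p = 0.167) and NUC-L1 (0.67, limma adjusted p = 0.182). Of 6 genes of the TOR pathway, which controls ribosome production, limma called 0, and 1 had an unadjusted p under 0.05. That was the S6 kinase gene PK1 (AT3G08730), which was at 19.4 and 19.2 FPKM in wild type and 10.5 and 13.1 FPKM in the mutant (log2 difference -0.67, adjusted p = 0.0760), and S6K2 had a difference of 0.29 (adjusted p = 0.237). Of 32 nuclear genes of plastid ribosomal proteins limma called 0. At an unadjusted p under 0.05 were 9, all higher, beside 14.8% of all genes tested. The median of the 32 was 0.40, with 0.50 in mutant replicate 1 and 0.29 in replicate 2. RPL4 (AT1G07320) and EMB2184 led them with differences of 0.83 (adjusted p = 0.147) and 0.77 (adjusted p = 0.181). The authors' deposited table called 4 of the 11 elongation factor genes and 2 of the 14 biogenesis genes higher. It also called 9 of the 32 plastid genes and 0 of the 6 TOR pathway genes higher, beside 5.85% of the genes in it. Of these lists it called 1 TOR pathway gene lower and 0 of the others, beside 3.65%.

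Markers of dividing cells, in which ribosomal protein genes are highly transcribed, were read from the same fit. The 6 markers CYCB1;1, CYCB1;2, KNOLLE, CDKB1;1, CDKB2;1 and CDKB2;2 summed to 55.8 and 53.7 FPKM in wild type and 50.1 and 47.9 FPKM in the mutant. Limma called 0 of 6, with 1 at an unadjusted p under 0.05, KNOLLE, which was lower in the mutant (log2 difference -0.42, adjusted p = 0.142) and gave the largest part of the sum. Mutant replicate 1 was above replicate 2 for 5 of 6 markers (83.3%), beside 51.8% of all genes tested and 82.6% of the 46. The median gap between the mutant libraries was 0.096 on the log2 scale for the markers and 0.315 for the 46. Mutant replicate 1 was the highest library for CYCB1;1, CDKB2;1 and CDKB1;1, the last at 6.04 against 6.01 FPKM in wild-type replicate 1. CYCB1;2 and KNOLLE had lower values in each mutant library than in either wild-type one, and 0 of 6 had higher values in this way. The 4 root markers, PYK10, NRT2.1, COBL9 and EXPA7, summed to 334 and 383 FPKM in wild type and 509 and 611 FPKM in the mutant, with 0 of 4 called. Nearly all of that sum was PYK10, at 323 and 372 FPKM in wild type and 500.1 and 601 FPKM in the mutant. The 2 root markers at an unadjusted p under 0.05 went opposite ways, with log2 differences of 0.66 for PYK10 (limma adjusted p = 0.129) and -0.68 for NRT2.1 (adjusted p = 0.0881), while those of COBL9 and EXPA7 were -0.23 and 0.0087. The 4 seed markers, CRA1, CRC, OLEO1 and SESA5, summed to 0.804 and 0.620 FPKM in wild type and to 46.7 and 59.2 FPKM in the mutant, and limma called 4 of 4 higher. SESA5 was listed at 0 in both wild-type libraries. The seed markers were high in both mutant libraries, with SESA5 higher in replicate 1 and the others higher in replicate 2. The part of any tissue or of dividing cells in the levels of the 46 was not tested.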

How the data were processed

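RNA was measured in 4 libraries, grouped by the genotype and replicate number in the labels. Per the submitters' processing notes, the authors used TAIR10 as genome and FastQC, cutadapt, HISAT2, deepTools, featureCounts, SAMtools and DESeq2, all with no version. Not given in the sources used here are the annotation release, the strand setting and gene filters. The authors deposited FPKM per gene and library, and the output of their DESeq2 test: a mean normalised signal, a log2 fold change, the test's score, and a raw and an adjusted p-value. FPKM and mean signal together gave whole reads for 100% of 92696 values within 0.01. The implied gene length was a median of 1.19 times the exon length. Ratios of a gene between libraries are not affected. Levels and shares compared across genes, and the length limit of the class, do rest on these lengths. Size factors of 0.9995 and 1.3479 (wild type) and 0.7849 and 0.9574 (atino80-5) were implied, and totals were 13068214 to 18406709 reads. Replicates differed beyond counting noise (chi-square per degree of freedom 13.0 in wild type and 40.6 in the mutant).

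The 17642 genes whose mean reached 1 FPKM were tested by limma 3.58.1 (R 4.3.3) on log2(FPKM + 1). The fit had genotype as its single term and a trend of variance with level, and a gene was called at an adjusted p under 0.05. Log2 differences are on that scale, which understates low genes, and folds are ratios of FPKM. No set was tested. The script was tested on simulated data. The members and lists were chosen with earlier results of these data known. Named are the P1 and P0 genes and RACK1A, the 3 highest and lowest members by level and by difference, called genes, and 2 to 4 genes of each other list. Other members were named after their values were seen, and 1 member counted in the totals is not reported here by itself. Sequences and overlaps come from RefSeq TAIR10.1, whose coordinates are given on that assembly; 23147 of 23174 loci matched it. The family list holds 232 loci, of which 220 had values, written from general knowledge. Alternatives were pseudocounts of 0.1 and 5, no minimum or 5 FPKM, quantile normalisation, median centring, total reads, removal of the length trend, limma without trend, robust limma, voom, the replicate block, and each library left out.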

Additional observations from a re-analysis of the deposited data

How the results depend on the processing

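No alternative gave the 46 genes a median below 0. The count of all genes changed, 955 as reported (528 higher and 427 lower), was 572 with a minimum of 5 FPKM, 1617 with scaling to total reads (484 higher and 1133 lower) and 1985 with the replicate number as a block. It ran from 443 to 6896 with a library left out: 443 and 587 without wild-type replicates 1 and 2, 1561 without atino80-5 replicate 1 and 6896 without atino80-5 replicate 2. Of the 46, 2 were called higher with the replicate block (among them RPP1A at adjusted p = 0.0267), and from 0 to 24 with a library left out, the 24 without atino80-5 replicate 2. From 0 to 3 were called lower with a library left out (RPL23aA, RPL23aB and RPL28A without atino80-5 replicate 2), and 1 under quantile normalisation (RPL10C, log2 difference -0.83, adjusted p = 0.0368). The median of the 46, 0.282 as reported, was 0.022 under quantile normalisation and 0.063 with total reads, and from 0.112 to 0.455 with a library left out, the ends being without atino80-5 replicates 1 and 2. The median of the short, highly expressed genes, 0.326, was 0.023, 0.109 and 0.200 under quantile normalisation, total reads and removal of the length trend, 0.197 with wider limits (5557 genes), and from 0.238 to 0.414 with a library left out. The median of the other cytosolic ribosomal protein genes, 0.307, was -0.015 under quantile normalisation, 0.093 with total reads and 0.131 without atino80-5 replicate 1. The log2 difference of RPP1A (AT1G01100), 1.094 with limma adjusted p = 0.180, ran from 0.410 to 1.778 with a library left out. RPP1A passed with the replicate block (1.094, limma adjusted p = 0.0267), as did 11.3% of all genes tested, 6.32% higher and 4.93% lower. Its adjusted p was 0.116 with voom. Beside the 1 member called lower under quantile normalisation stood 3.31% of all genes tested. A fit with a library left out has 1 library in a genotype. The count of all genes moved in those fits too, so nothing is drawn from their counts of the 46. The cause of the shifts between settings was not tested. Over genes, the deviations of same-numbered libraries from their genotype means correlated at -0.034. A single contrast per genotype cannot decide whether same-numbered libraries shared a culture or batch, which the labels do not give. The difference in the share of reads was 0.135 percentage points, and 0.196 with the 50 top genes removed. Precision is limited by the spread between the 2 libraries per genotype. Every one of the 46 had at least 145 reads per library. For those with few reads, such as RPP0A (145 to 202 reads), counting limits it too.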
